A study of Rattus norvegicus with 8 samples.

Results

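The genes described here are 40 members of the DNA repair and damage signalling machinery of the rat, measured in whole liver after 90 days of furan. They were chosen by name: non-control probes of the array whose annotated gene symbol equalled a member symbol. Of the 40 genes, 37 had such a probe, and Ercc2, Ddb2 and Msh6 had none under those symbols and were not analysed here. Of the 37, 36 were tested among 17683 features, because Brca1 was well above background on only 1 control and 3 furan arrays. The samples were livers of 8 male Fisher 344 rats, an inbred strain, aged 18 weeks, with 1 array for each animal. The 4 rats of the furan group were gavaged with furan, 8 mg per kg bodyweight on each of 5 days a week for 90 days, and their livers were taken 24 hours after dosing ended; the other 4 were controls of the same strain, sex and age. What the controls were given was not stated in the sources used here. Furan is a liver toxicant and carcinogen of rodents that is oxidised in hepatocytes to a reactive dialdehyde.

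Cells repair damaged DNA by several routes. Base excision repair removes single altered bases and mends breaks of a single strand, nucleotide excision repair cuts out bulky lesions, and mismatch repair corrects copying errors. Breaks of both strands are rejoined directly by end joining or copied from the sister chromatid by homologous recombination, while the kinases Atm, Atr, Chek1 and Chek2 relay damage to the cell cycle. Most hepatocytes of an adult liver are not dividing, and many genes of recombination, replication and checkpoint control are induced when a cell enters S phase, in large part through E2F transcription factors.

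E2F factors bind short GC-rich words close to the start of transcription. Promoter sequences (250 bases before to 50 after the start, RefSeq, GRCr8 build) were matched for 34 of the 40 genes. They were searched on both strands for the words TTTCGCGC, TTTGGCGC, TTTCCCGC and TTTGCCGC. A word was found in 7 of the 34 promoters (20.6%), against 716 of all 33469 promoters of the same length (2.14%). Among the 11 members known as S phase genes (Pold1, Pole, Brca1, Brca2, Rad54l, Chek1, Fancd2, Msh6, Ung, Lig1 and Fen1) 6 of 11 held a word (54.5%), and of the other matched members 1 of 23 did (4.35%). By direction of change, 3 of the 19 matched members called higher held a word (15.8%), and 3 of the 12 matched members tested and not called higher (25.0%). Other searched words were no more frequent in the members than elsewhere. TGACNNNGC, the core of the antioxidant response element, was in 4 of 34 (11.8%, against 12.1% of all promoters), and TTTGAA, the cell cycle homology region, was in 3 of 34 (8.82%, against 18.3%). A match describes letters and is not evidence of a bound factor. As S phase genes are induced in large part through E2F factors, their share of words is no independent result. The comparison with all promoters was not matched for GC content. The promoters of Chek1 (chr8:44629794-44630093, minus strand), Fancd2 (chr4:148234458-148234757, plus strand), Lig1 (chr1:83242920-83243219, plus strand) and Ung (chr12:48153996-48154295, minus strand) are shown 5′ to 3′ because each holds an E2F word of the searched set while the first 3 genes were called higher and Ung lower. The capitals mark the word, which is the same in Chek1 and Fancd2 and differs in Lig1 and in Ung.
Chek1: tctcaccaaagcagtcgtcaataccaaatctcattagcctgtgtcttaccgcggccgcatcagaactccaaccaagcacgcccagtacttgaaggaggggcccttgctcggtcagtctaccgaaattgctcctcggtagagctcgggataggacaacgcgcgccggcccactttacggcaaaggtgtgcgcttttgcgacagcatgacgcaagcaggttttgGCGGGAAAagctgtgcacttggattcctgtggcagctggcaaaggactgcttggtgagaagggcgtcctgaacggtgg
Fancd2: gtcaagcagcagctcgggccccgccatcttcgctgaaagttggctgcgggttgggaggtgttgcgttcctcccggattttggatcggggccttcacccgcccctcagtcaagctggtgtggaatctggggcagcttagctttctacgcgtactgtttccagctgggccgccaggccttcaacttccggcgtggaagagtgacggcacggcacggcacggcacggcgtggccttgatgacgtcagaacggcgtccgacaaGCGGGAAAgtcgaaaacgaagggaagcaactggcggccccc
Lig1: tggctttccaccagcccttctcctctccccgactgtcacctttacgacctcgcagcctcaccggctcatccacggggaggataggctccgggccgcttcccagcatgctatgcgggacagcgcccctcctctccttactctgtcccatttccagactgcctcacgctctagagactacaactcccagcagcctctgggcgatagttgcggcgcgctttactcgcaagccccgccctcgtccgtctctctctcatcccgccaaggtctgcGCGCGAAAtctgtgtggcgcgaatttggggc
Ung: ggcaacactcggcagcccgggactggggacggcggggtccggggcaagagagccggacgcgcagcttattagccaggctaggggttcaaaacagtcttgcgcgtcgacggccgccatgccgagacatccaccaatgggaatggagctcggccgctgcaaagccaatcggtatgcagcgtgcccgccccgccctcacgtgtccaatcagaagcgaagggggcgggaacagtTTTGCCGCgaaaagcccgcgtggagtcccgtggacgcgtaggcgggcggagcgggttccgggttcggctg
The word begins 28 bases before the annotated start in Chek1 and 20 bases before it in Ung, and after the start in Fancd2 and Lig1.

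Levels are log2 processed signals with the 75th percentile of each array's non-control spots at 0, so a difference of 1 is a 2-fold change. The number of arrays limits the precision. The 75th percentile lay between 827.4 and 1057.3 intensity units on the control arrays and between 1256.4 and 1595.8 on the furan arrays. Array 2 of the controls and array 1 of the furan group had the largest variation between replicate spots in their groups (median coefficients of variation 9.38% and 12.83%, against 4.2% to 7.57% on the other 6). Arrays 1 and 2 of each group lay on slide 1, and arrays 3 and 4 on slide 2. The 12 hepatocyte markers, which check the tissue, were well above background on all 8 arrays, with array medians between 6.4 and 6.92. In bulk tissue, fewer cells of a type and less RNA per cell cannot be told apart.

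Repair genes were higher after furan more often than lower. Of the 36 tested members, 20 were called higher (55.6%), 3 lower (8.33%) and 13 were not called (limma, adjusted p below 0.05). Over all features the called shares were 17.3% higher and 16.9% lower. The member median was a log2 change of 0.37, beside -0.03 for all features, and it was 0.32 on slide 1 and 0.46 on slide 2. For 23 of the 36 (63.9%) the values of both groups did not overlap, against 36.7% of all features. Rises of at least 2-fold were called for 7 members (Fancd2, Rad54l, Chek1, Chek2, Pold1, Xrcc5 and Mgmt) and falls of that size for 0 (all 3 called falls, also the 3 members lower at an unadjusted p below 0.05, were smaller), against 5.17% and 3.82% of all features. Fancd2 entered the test only through its furan arrays, and it was not called with another background correction. Among the 35 members well above background on all 8 arrays, 19 were called higher (54.3%), 6 of them at least 2-fold, and 3 lower.

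The calls differ in how much they depend on single animals. Of the 20 members called higher, 16 were called in each of 8 fits that left out 1 array in turn, and Ercc3, Fen1, Parp1 and Rad52 were not. None of the 3 falls was called in all of these fits. Normexp, which corrects the background by a model in place of the scanner software's own subtraction, kept 14 of the 20 calls and ended those of Brca2, Chek2, Fancd2, Mre11a, Rad52 and Rad54l. As used here, normexp also adds a constant of 50 intensity units to every spot, which alters the changes of dim probes most. These changes were not just shrunk toward 0. Neil3, Xrcc2, Ms4a1, Fcer1a and Elane, which are no members, were well above background on no array. Their changes lay between -0.89 and 0.11 with the processed signal, and between -0.59 and -0.49 with normexp. All members whose calls ended were dim (mean level below -2), so an ended call does not show that a rise was absent. In all 10 of these other fits together (8 without an array, normexp and quantile normalization) 11 members were called higher: Mutyh, Apex1, Lig1, Xrcc1, Ercc1, Xrcc5, Xrcc6, Chek1, Atr, Pold1 and Mgmt.

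**Figure D1:**
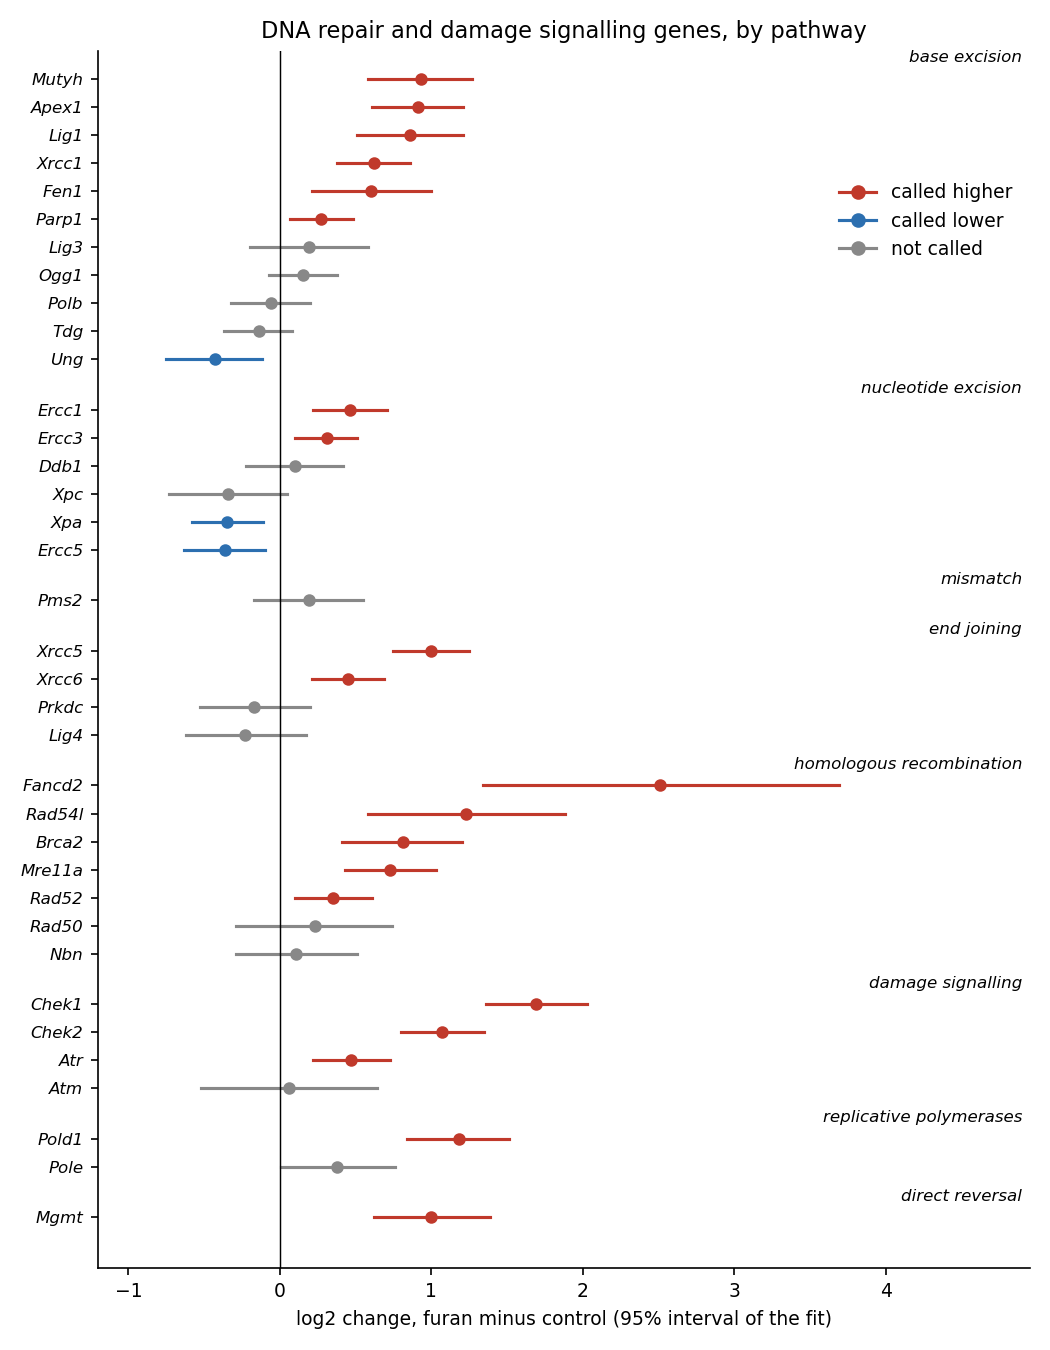
The log2 change between furan and control livers is plotted for each of the 36 tested members, grouped by pathway, with the 95% interval of the limma fit. The 20 members in red were called higher, the 3 in blue (Ung, Xpa and Ercc5) lower, and Fancd2, at 2.51 here and -0.03 with normexp, had the widest interval.

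Base excision repair held 11 tested members, with a median log2 change of 0.27. Of these 6 rose (54.5%, against 17.3% of all features), 1 fell (9.09%, against 16.9%) and 4 were not called. Rises were found at several steps of the route, from the glycosylase Mutyh to the ligase Lig1. Mutyh removes adenine paired with oxidised guanine (probe on chromosome 5 from 137115838 to 137115897, rn4 build, the build of all probe positions here). Controls 1 to 4 read -1.09, -1.07, -0.62 and -1.07, and furan livers 1 to 4, given in that order here and for every gene, read -0.05, 0.19, -0.27 and -0.01. Every furan liver lay above every control, with control 3 the highest control. Mean levels were -0.96 ± 0.23 in controls and -0.04 ± 0.19 after furan (SD, n = 4 each). Mutyh thus rose by 0.93 ± 0.15 SE on the log2 scale (limma, adjusted p = 0.00311), with 1.15 on slide 1 and 0.70 on slide 2. Apex1, the endonuclease that cuts the strand where a base has been removed (chromosome 15 from 26906159 to 26906218), read 1.69, 1.39, 1.53 and 1.86 in controls and 2.53, 2.67, 2.36 and 2.56 after furan. These groups did not overlap either. Apex1 rose 1.88-fold, by 0.91 ± 0.13 SE (adjusted p = 0.00199), with 1.06 on slide 1 and 0.77 on slide 2.

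The sealing steps of the route moved the same way where they were called. Lig1, the replicative DNA ligase that also closes long repair patches, rose by 0.86 ± 0.15 SE (adjusted p = 0.0045), from controls between -0.56 and -0.38 to furan livers between 0.03 and 0.74. Xrcc1, the scaffold of single-strand break repair, rose by 0.62 ± 0.11 SE (adjusted p = 0.00368). Its partner Lig3, a ligase, had a change of 0.19 that was not called (95% interval -0.20 to 0.58). The flap endonuclease Fen1 rose by 0.60 (adjusted p = 0.0278), a call that ended without control 2 (adjusted p = 0.0699), control 3 (0.0751), furan 1 (0.0588) or furan 2 (0.0754). Parp1, which senses nicks, rose by 0.27 (adjusted p = 0.0461) and was called without furan 4 (0.0454) but in none of the other 7 fits without 1 array (0.0715 to 0.116).

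The other glycosylases of the list were not called or were lower. Ogg1, which removes oxidised guanine, changed by 0.15 (95% interval -0.07 to 0.38) and Tdg, which removes thymine from mismatches with guanine, by -0.14 (interval -0.37 to 0.08), and neither was called. Polb, the polymerase that fills the gap, changed by -0.06 on its brighter probe (interval -0.32 to 0.20), while its other tested probe changed by 0.30 (adjusted p = 0.0448 in a fit over all probes). The probes of Polb therefore did not give a single answer. Ung, the glycosylase that removes uracil from DNA (chromosome 12 from 43522521 to 43522580), read 0.56, 0.61, 0.64 and 0.59 in controls and 0.13, -0.18, 0.44 and 0.28 after furan. All furan livers were below all controls, and the spread was wider after furan. The change of Ung was -0.43 ± 0.14 SE (adjusted p = 0.0421), with -0.61 on slide 1 and -0.26 on slide 2. It was called without furan 3 (0.0236) and in none of the other 7 fits without 1 array (0.0547 to 0.0963).

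Of 14 tested other base excision genes, which are not members, 2 rose (14.3%, against 17.3% of all features) and 0 fell (3 and 2 at an unadjusted p below 0.05, limma), with a median of 0.15. Tdp1, which frees topoisomerase trapped on DNA, had the largest called rise (1.20, adjusted p = 0.00102, and 0.68 with normexp).

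Nucleotide excision repair had calls in both directions, but only that of Ercc1 held in each of the 8 fits without 1 array. Among its 6 tested members 2 rose (33.3%, against 17.3% of all features), 2 fell (33.3%, against 16.9%) and 2 were not called. The median was -0.12. Ercc1, a subunit of the nuclease that cuts on the 5′ side of a lesion (chromosome 1 from 78721297 to 78721356), read -0.80, -0.79, -0.97 and -0.86 in controls and -0.38, -0.34, -0.58 and -0.25 after furan. All furan livers were above all controls. Ercc1 rose by 0.46 ± 0.11 SE (adjusted p = 0.0118), with slide values of 0.43 (slide 1) and 0.49 (slide 2). Ercc3, a helicase of the transcription factor TFIIH, read 2.24, 2.25, 2.12 and 2.25 in controls and 2.57, 2.51, 2.42 and 2.57 after furan. The groups did not overlap, but the difference was small. Ercc3 rose by 0.31 ± 0.09 SE (adjusted p = 0.0328, 0.30 on slide 1 and 0.31 on slide 2), and it was called without furan 3 (0.0383) and in none of the other 7 fits without 1 array (0.0557 to 0.0957).

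Ercc5, the nuclease that cuts on the 3′ side (chromosome 9 from 43292947 to 43293006), read 0.63, 0.47, 0.48 and 0.60 in controls and 0.01, 0.07, 0.38 and 0.27 after furan. Furan livers 1 and 2 were the lowest. Its change was -0.36 ± 0.12 SE (adjusted p = 0.0413), -0.51 on slide 1 and -0.21 on slide 2, and it was called without furan 3 (0.0295) and in none of the other 7 fits without 1 array (0.0517 to 0.105). Xpa, which checks the lesion and places the nucleases, fell by 0.35 (adjusted p = 0.034), from controls between -0.51 and -0.22 to furan livers between -0.87 and -0.67. Its call held without furan 1 (0.0499) or furan 4 (0.0418) and ended in the other 6 fits without 1 array (0.0538 to 0.089). Xpc, the sensor of distorted DNA, changed by -0.34 (interval -0.73 to 0.05) and Ddb1, part of the ultraviolet damage sensor, by 0.10 (interval -0.22 to 0.42), without a call.

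In the other nucleotide excision genes 5 of 17 tested rose (29.4%, against 17.3% of all features) and 1 fell (5.88%, against 16.9%). The largest called rise was that of Rpa2, a subunit of the protein that coats single-stranded DNA (0.75, adjusted p = 0.00505), and the called fall that of Ccnh, a cyclin of TFIIH (-0.35, adjusted p = 0.032).

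Mismatch repair was represented by Pms2, an endonuclease subunit, which read -2.87, -2.53, -2.97 and -3.05 in controls and -2.47, -2.78, -2.48 and -2.91 after furan. The groups overlapped. Its change of 0.19 (95% interval -0.17 to 0.55) was not called (adjusted p = 0.374), and it was 0.07 on slide 1 and 0.31 on slide 2. Of the 7 other tested mismatch genes 2 rose (28.6%, against 17.3% of all features).

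End joining differed by subunit. Both Ku subunits, which form the ring that grips a broken DNA end, rose, while the kinase and the ligase that act after Ku were not called. Xrcc5, the larger Ku subunit (chromosome 9 from 71581847 to 71581906), read 1.46, 1.35, 1.17 and 1.49 in controls and 2.35, 2.46, 2.24 and 2.44 after furan. The gap between the groups was several times the spread within them. Xrcc5 rose 2.01-fold, from 1.37 ± 0.14 to 2.37 ± 0.10 (SD, n = 4 each), by 1.00 ± 0.11 SE (adjusted p = 0.000777). The slides gave 1.00 (slide 1) and 1.01 (slide 2), and normexp gave 1.02. Xrcc6, the other Ku subunit (chromosome 7 from 120422863 to 120422922), read 1.19, 1.11, 0.89 and 1.00 in controls and 1.46, 1.47, 1.42 and 1.63 after furan. These groups were apart as well. Xrcc6 rose by 0.45 ± 0.11 SE (adjusted p = 0.0134), with slide values of 0.31 (slide 1) and 0.58 (slide 2). Prkdc, the kinase recruited by Ku, changed by -0.17 (95% interval -0.53 to 0.20) and Lig4, the ligase that joins the ends, by -0.23 (interval -0.62 to 0.17). Lig4 was called lower with normexp (-0.43), but its probe was dim, so this value cannot be read against 0. Of 6 other tested end joining genes 1 rose (16.7%, against 17.3% of all features) and 0 fell (1 at an unadjusted p below 0.05, limma). The rise was that of the gap-filling polymerase Poll (0.40, limma, adjusted p = 0.0378).

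Homologous recombination and crosslink repair held 7 tested members, with a median of 0.73 (0.77 on slide 1 and 0.51 on slide 2). Of these 5 rose (71.4%, against 17.3% of all features) and 0 fell (limma, also 0 at an unadjusted p below 0.05). Most of these probes were dim, and the sizes depended on the background correction: with normexp the median was 0.14. Of the 6 members well above background on all 8 arrays 4 rose, with a median of 0.54. Fancd2, which is loaded onto DNA at crosslinks (chromosome 4 from 149490916 to 149491599), read -9.08, -7.12, -9.32 and -7.47 in controls and -5.06, -5.86, -6.06 and -5.96 after furan. It was well above background on 1 of 4 control and on 4 of 4 furan arrays, so the control levels are mostly close to background. The fitted change was 2.51 ± 0.51 SE (5.71-fold, limma, adjusted p = 0.00746), 2.64 on slide 1 and 2.39 on slide 2. With normexp it was -0.03 (limma, adjusted p = 0.864) and was not called, a value that cannot be read against 0 for so dim a probe. The probe was dim beside the constant that normexp adds, so the size of the change is not settled. Rad54l, a motor protein of strand pairing (chromosome 5 from 136234072 to 136234131), read -5.74, -5.77, -6.14 and -5.41 in controls and -3.84, -4.42, -5.21 and -4.67 after furan. The lowest furan value, that of furan 3, lay just above the highest control. Rad54l rose by 1.23 ± 0.28 SE (2.35-fold, adjusted p = 0.0118), with slide values of 1.63 (slide 1) and 0.83 (slide 2), and its change was 0.16 with normexp (adjusted p = 0.432).

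The other called recombination members showed the same dependence. Brca2, a mediator of recombination, rose by 0.81 ± 0.17 SE (adjusted p = 0.00929; 0.25 with normexp, adjusted p = 0.0801). Mre11a, the nuclease of the complex that trims broken ends, rose by 0.73 ± 0.13 SE (adjusted p = 0.00458; 0.17 with normexp, adjusted p = 0.201). The other members of that complex were not called: Rad50 changed by 0.23 (95% interval -0.29 to 0.74; -0.16 with normexp) and Nbn by 0.11 (interval -0.29 to 0.51), with Nbn at -0.28 on slide 1 and 0.51 on slide 2. Rad52, which anneals strands, rose by 0.35 (adjusted p = 0.0413; 0.06 with normexp) and was called without furan 1 (0.0399) but in none of the other 7 fits without 1 array (0.056 to 0.108). Brca1, not tested, read -7.31, -7.51, -7.75 and -7.20 in controls and -5.89, -6.90, -6.53 and -7.29 after furan. Its furan livers 1 to 3 were above all controls, while furan 4 lay among them.

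Of 24 other recombination genes tested, 10 rose (41.7%, against 17.3% of all features) and 2 fell (8.33%, against 16.9%). However, 5 of the 10 were well above background on only 1 to 3 control arrays and entered the test through the furan group. Of the 19 that were well above background on all 8 arrays, 5 rose (26.3%, nearer to the 17.3% of all features) and 2 fell. Their median was 0.21 (-0.05 with normexp). Slx4, a scaffold of nucleases, had the largest called fall (-0.51, adjusted p = 0.00853).

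Damage signalling was higher at the checkpoint kinases and at Atr, and Atm was not called. Chek1, the kinase downstream of Atr that holds cells in S and G2 phase (chromosome 8 from 37954886 to 37954946), read -5.16, -5.22, -4.95 and -5.15 in controls and -3.07, -3.70, -3.49 and -3.45 after furan. The controls were tightly grouped and every furan liver was clearly above them. Chek1 rose from -5.12 ± 0.12 to -3.43 ± 0.26 (SD, n = 4 each), 3.23-fold, by 1.69 ± 0.15 SE (adjusted p = 0.000348), with 1.81 on slide 1 and 1.58 on slide 2. With normexp its change was 0.54 and was called. Chek2, the kinase downstream of Atm (chromosome 12 from 45943484 to 45943543), read -5.01, -5.00, -5.17 and -5.08 in controls and -3.81, -3.90, -4.26 and -4.0 after furan. Again the groups did not overlap. Chek2 rose 2.10-fold, by 1.07 ± 0.12 SE (adjusted p = 0.000867), with slide values of 1.15 (slide 1) and 0.99 (slide 2), and its change was 0.23 with normexp (adjusted p = 0.0911).

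Atr, which responds to stalled replication, rose by 0.47 ± 0.11 SE (adjusted p = 0.0129; 0.32 with normexp), from controls between -1.56 and -1.24 to furan livers between -1.10 and -0.87. Its second probe was on no array well above background. Atm, which responds to breaks of both strands, read between -6.77 and -6.05 in controls and between -6.77 and -5.72 after furan. Its change of 0.06 (95% interval -0.52 to 0.64) was not called. With normexp the change of Atm was -0.39 and called lower (limma, adjusted p = 0.0226). The probe was dim, so this value cannot be read against 0 and does not show a fall. Of 15 other tested signalling genes 5 rose (33.3%, against 17.3% of all features) and 1 fell (6.67%, against 16.9%). Wee1, a kinase that restrains entry into mitosis, had the largest called rise (1.39, adjusted p = 0.00271; 1.11 with normexp) and Rnf8, a ubiquitin ligase at breaks, the called fall (-0.60, adjusted p = 0.0185).

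**Figure D2:**
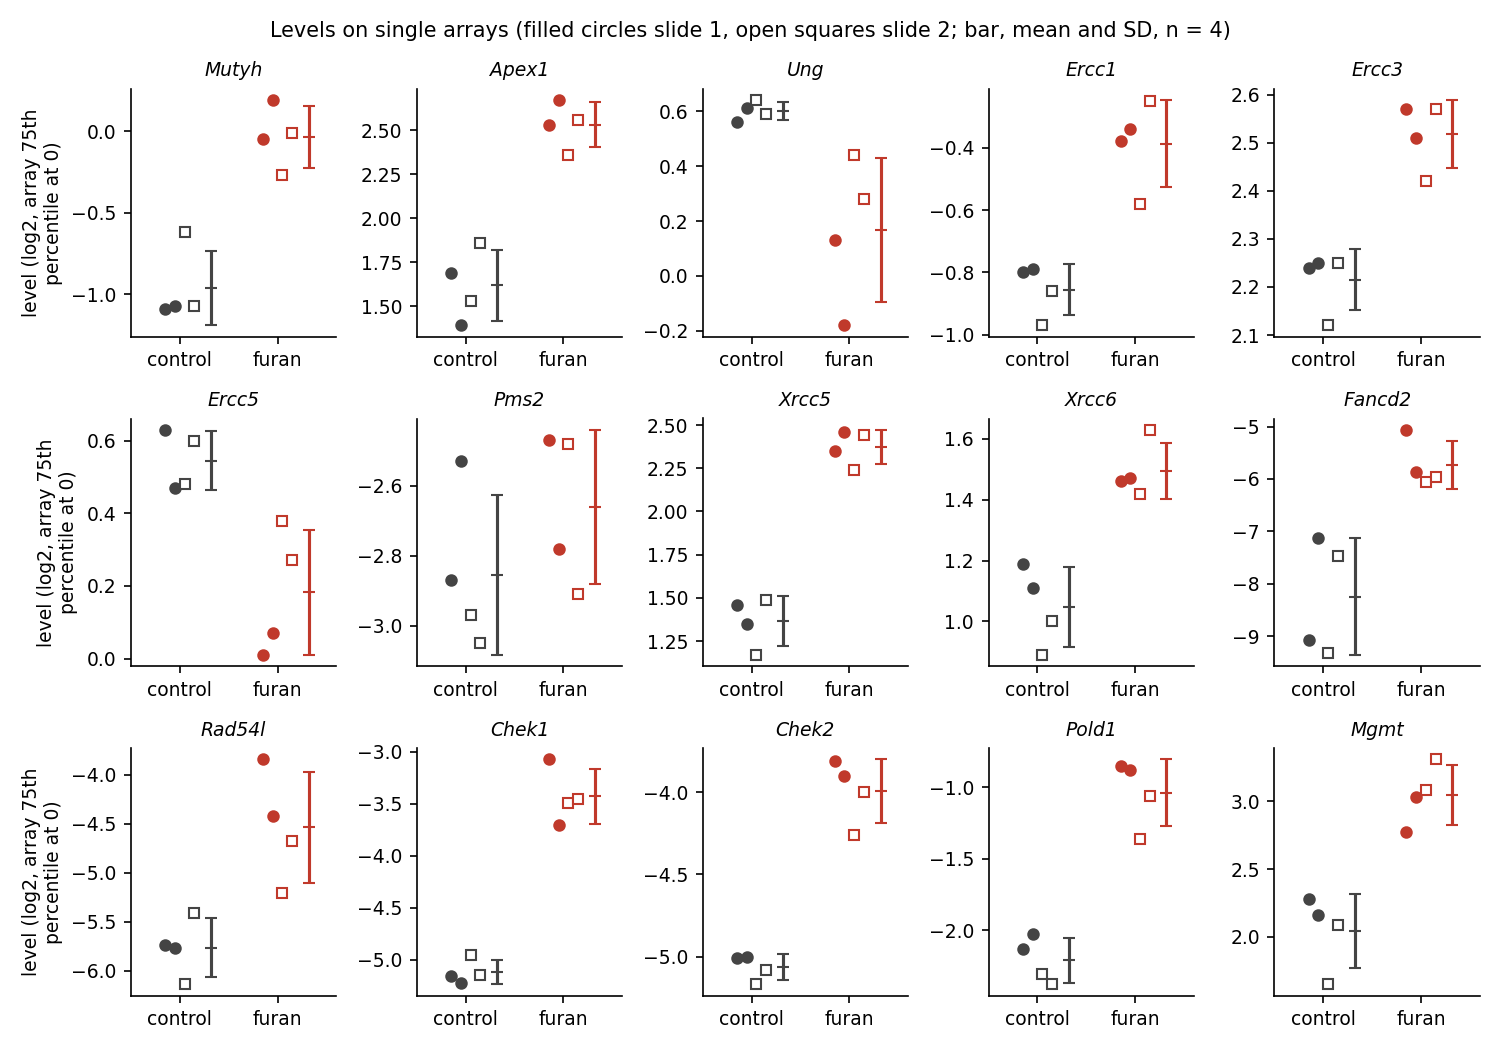
Each panel plots the log2 level of a gene on the 8 arrays, with filled circles for slide 1, open squares for slide 2 and bars for the mean and SD of the 4 arrays of a group. Pms2 overlaps between the groups; the other 14 genes do not, with Ung and Ercc5 lower after furan and the other 12 higher.

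Of the replicative polymerases, Pold1, the catalytic subunit of polymerase delta (chromosome 1 from 95010792 to 95011164), read -2.13, -2.03, -2.31 and -2.38 in controls and -0.85, -0.88, -1.36 and -1.06 after furan. There was no overlap. Pold1 rose 2.26-fold, by 1.18 ± 0.14 SE (adjusted p = 0.00121). The slides gave 1.21 (slide 1) and 1.14 (slide 2), and normexp gave 1.00. Pole, the catalytic subunit of polymerase epsilon, changed by 0.38 (95% interval 0.01 to 0.76) and was not called (adjusted p = 0.103), except without furan 2 (0.50, adjusted p = 0.0452). Among 13 other tested genes of the replication machinery 5 rose (38.5%, against 17.3% of all features) and 1 fell (7.69%, against 16.9%). Pold2, the second subunit of polymerase delta, was highest (1.83, limma, adjusted p = 0.000595) and Rfc1, of the clamp loader, lower (-0.72, limma, adjusted p = 0.00619).

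Direct reversal was represented by Mgmt, the protein that takes alkyl groups off guanine (chromosome 1 from 196866830 to 196866889). It read 2.28, 2.16, 1.65 and 2.09 in controls and 2.77, 3.03, 3.08 and 3.31 after furan. The groups did not overlap, and control 3 was the lowest. Mgmt rose 2.00-fold, by 1.00 ± 0.17 SE (adjusted p = 0.00363). The slides gave 0.68 (slide 1) and 1.32 (slide 2), and normexp gave 1.05. Of the 3 other tested genes of this kind 2 rose (66.7%, against 17.3% of all features) and 1 fell (33.3%, against 16.9%). Alkbh2, a dioxygenase that removes methyl groups, had the larger rise (0.84, limma, adjusted p = 0.00364), and Alkbh1, a relative, fell by 0.49 (limma, adjusted p = 0.0333).

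Over all pathways, 107 repair genes that are no members were tested. Of these 33 were called higher (30.8%) and 8 lower (7.48%), beside 17.3% and 16.9% of all features, and their median was 0.15. Among the 101 well above background on all 8 arrays, 28 were higher (27.7%) and 8 lower. Translesion synthesis, which has no member here, had 1 rise (12.5%) and 2 falls (25.0%) among 8 tested genes. Rad18 changed by 0.97 (limma, adjusted p = 0.0125, and 0.42 with normexp) and Ube2b by -0.54 (limma, adjusted p = 0.00663). The members thus had a higher share of rises than the other repair genes, a difference that was not tested and that follows a choice of genes made with results known.

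The members known as S phase genes were higher after furan in 7 of 9 tested (77.8%, against 17.3% of all features), with 1 lower (Ung) and a median of 0.86. Without Fancd2 they were 6 of 8, with a median of 0.84. Of the other 27 tested members 13 were higher (48.1%) and 2 lower, with a median of 0.23. With normexp the medians were 0.25 for the S phase members and 0.14 for these others. Markers of dividing cells moved with them: 19 of 20 tested were called higher and 0 lower (20 and 0 at an unadjusted p below 0.05, limma), with a median of 2.38 (2.78 on slide 1 and 1.92 on slide 2). With normexp the median of these markers was 1.09. Of the 19 markers well above background on all 8 arrays, 18 were higher. Their summed level, on a linear scale with the 75th percentile at 1, was 1.79 to 2.57 in controls and 5.22 to 9.65 after furan. Mki67, the proliferation antigen, rose by 2.47 (adjusted p = 0.000595), while Pcna, the sliding clamp of replication and repair, changed by 0.45 without a call (adjusted p = 0.0676). The part of dividing cells in the rises of the members was not tested.

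The furan livers stood in the same order in both lists. Furan 1 and 2 lay on slide 1 and furan 3 and 4 on slide 2, so slide and animal cannot be told apart in this order. Furan 1 also had the largest variation between replicate spots. The 7 S phase members called higher stood at medians of 1.36, 1.33, 0.71 and 1.10 above the control mean in furan livers 1 to 4. Furan 1 was the highest in 6 of these 7 genes and furan 3 the lowest in 5. The medians of the dividing-cell markers were -1.64, -2.19, -2.57 and -2.25 in the same livers, so furan 1 was highest and furan 3 lowest there too. The other 13 members called higher stood at medians of 0.54, 0.60, 0.62 and 0.60, with furan 1 the highest in 4 and furan 3 the lowest in 7 and the highest in 1. These 13 include both Ku subunits, Mgmt, Apex1, Mutyh and Chek2.

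**Figure D3:**
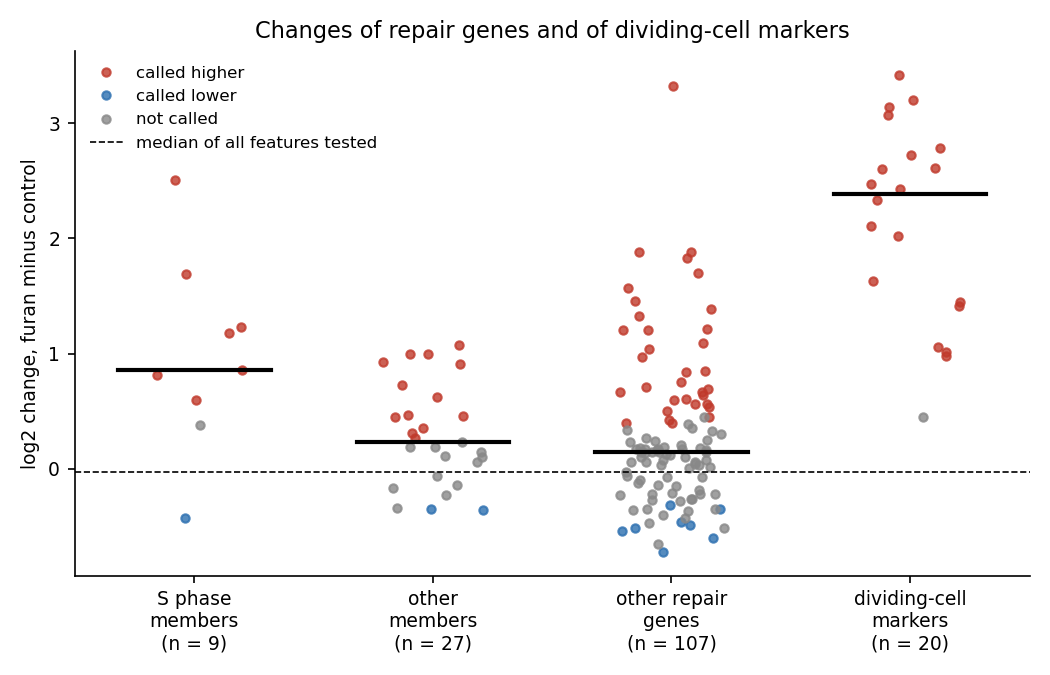
The log2 change between furan and control livers is plotted for each tested gene of 4 groups, with thick bars at the group medians (0.86, 0.23, 0.15 and 2.38 from left to right) and a dashed line at the median of all features (-0.03). Points are spread sideways at random, and the dividing-cell markers lie above most repair genes.

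Other cell types were checked by their markers. Of 12 tested hepatocyte markers 9 were lower and 1 higher after furan (median -0.70), with summed levels of 1760 to 2110 in controls and 1190 to 1480 after furan. Biliary markers had a median of 0.86, with 3 of 7 tested higher and 0 lower (4 and 0 at an unadjusted p below 0.05, limma), and their array medians were -3.66, 0.30, -3.28 and -3.40 in controls and 0.71, -1.30, -3.62 and -3.52 after furan, so control 2 and furan livers 1 and 2 stood apart from the rest. Their summed levels were 2.67 to 7.89 in controls and 5.99 to 14.1 after furan. Without the arrays control 2 and furan 1, 15 of the 20 members called higher were called. Markers of stellate cells, macrophages, lymphocytes and endothelium (27 tested) had 0 calls in either direction (limma, and 1 lower at an unadjusted p below 0.05), and 2 of 3 tested neutrophil markers were lower. The part of these cell types in the changes of the members was not tested.

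The background correction mattered most for dim probes. The 22 tested members with a mean level of at least -2 had a median change of 0.38, and 0.32 with normexp. The 14 below -2 had 0.36, and 0.06 with normexp. Normexp moved the median of all features from -0.03 to -0.18 and the calls over all features from 3057 higher and 2984 lower to 2803 higher and 6001 lower. Beside that median of -0.18, the normexp changes of Xrcc5, Mgmt, Pold1, Apex1, Mutyh, Lig1 and Xrcc1 were between 0.63 and 1.05, and those of Fancd2, Rad54l, Chek2, Mre11a and Brca2 between -0.03 and 0.25. The part of the brighter furan arrays in this was not tested.

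**Figure D4:**
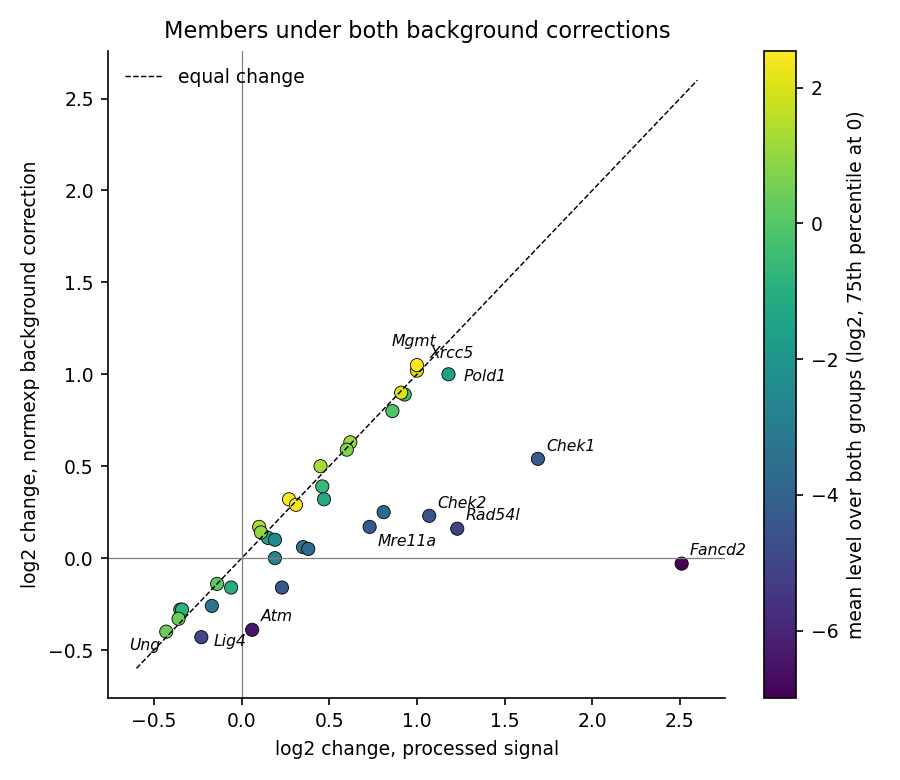
The log2 change of each of the 36 tested members with the processed signal (horizontal axis) is plotted against that with normexp (vertical axis), coloured by mean level, with a dashed line of equal change. Bright members such as Xrcc5, Mgmt and Ung lie near the line, while the dim Fancd2 (2.51 and -0.03), Rad54l and Chek2 lie far below it.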

How the data were processed

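Liver RNA of 8 rats was hybridised in 1 colour (Cy3) to Agilent arrays, and groups were taken from the labels. Per the file headers, the deposited scanner files give each spot a processed signal, an intensity after background subtraction, extracted with Agilent Feature Extraction 10.7, as the submitters' processing notes state; the deposited flags give outlier and background status. The authors' deposited series table holds the same intensities scaled to a 75th percentile of 1000. Flagged spots were left out and spots of a probe averaged. Of 30367 probes, 170 had no usable spot on at least 1 array. A probe counted as above background where at least 0.5 of its spots did, and 20268 probes above background on all 4 arrays of a group were tested, the brightest for each gene (17683 features). Groups were compared with limma 3.58.1 in R 4.3.3 (lmFit, eBayes, two-sided, Benjamini-Hochberg over all features, called at adjusted p below 0.05), tested on simulated data.

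The members and lists were chosen with earlier results of these data known. The lists were the members by pathway, other repair genes by pathway, and markers of dividing cells, hepatocytes, biliary, stellate, macrophage, lymphocyte, mast, endothelial and neutrophil cells (of mast cell markers 1 of 6 was tested and was not called). Every member is named. Values on every array are given for the 2 largest called rises and the largest called fall of each pathway, or the smallest p where none was called, and Brca1 was added after its values were seen. Of other repair genes the largest called rise and fall of each pathway are named, except 2 that are not reported here. Probe positions are those of the array annotation, and the exon or UTR of a probe was not analysed here. Alternatives were other background corrections, scalings, filters, probe rules, blocks and subsets of arrays.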

Additional observations from a re-analysis of the deposited data

Results flagged for a closer look

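In 6 cases a single array stood far from the other 3 of its group, by Dixon's criterion (the gap to the nearest array over the group's range). Among 72 groups checked, chance gives about 1 in 20, or 3.6. Mutyh read -0.62 on control 3, against -1.09 to -1.07 on the other controls. Lig1 read -0.38 on control 2, against -0.56 to -0.55. Lig4 read -5.32 on control 2, against -4.71 to -4.60. Ercc3 read 2.12 on control 3, against 2.24 to 2.25. Polb read -1.16 on control 4, against -1.01 to -1.0. Ogg1 read -1.37 on furan 3, against -1.56 to -1.54.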

How the results depend on the processing

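With normexp, 14 members were higher and 5 lower, 22 other repair genes and 6001 features were lower, and the member median was 0.17. Atm (-0.39) and Fancd2 (-0.03) changed sign. Both probes were dim, and normexp changes of dim probes cannot be read against 0. The part of the added constant in these counts was not tested. Falls were the least stable result. Members called lower numbered 0 without a filter on dim probes, on each slide alone, with the replicate number as a block and without control 2 and furan 1 together (limma; 3 members had an unadjusted p below 0.05 without the filter, with the block and without these arrays, 2 on slide 1 and 0 on slide 2). Other repair genes called lower numbered 4 without the filter, 4 with the replicate block and 5 without control 2 and furan 1. The replicate block left 17 members higher. Same-numbered arrays did not all deviate together (correlations -0.30, 0.12, 0.28 and 0.04). With so few arrays this cannot settle whether the numbers pair the animals, and the labels do not say. Slide 1 alone, with 2 arrays a group, gave 126 features higher and 35 lower, 0 members higher (13 at an unadjusted p below 0.05) and 2 other repair genes higher and 0 lower (28 and 7 unadjusted). Slide 2 alone gave 676 and 464 features, 4 members higher, 9 other repair genes higher and 0 lower (29 and 4 unadjusted), and a member median of 0.45. Leaving out each array in turn gave 16 to 19 members higher and 0 to 2 lower, 28 to 34 other repair genes higher and 3 to 9 lower, 2239 to 3016 features higher and 1934 (without furan 2) to 2958 lower, and a member median of 0.31 to 0.40. With quantile normalization 17 of the 20 member rises were called, and with the slide as a block 18. The authors' series table, the same intensities times a constant for each array, gave the same calls by construction. The mean of probes changed no member's call, but among the members only Polb had several tested probes. Fancd2 was well above background on 1 of 4 control arrays, which limits what its size can show.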
